A study of Mus musculus with 17 samples.

Results

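The genes described here are 4 bone morphogenetic proteins (Bmp2, Bmp4, Bmp6 and Bmp7), 2 transforming growth factors beta (Tgfb1 and Tgfb2) and the 4 inhibitors of DNA binding (Id1, Id2, Id3 and Id4). They were chosen by name as ligands and targets of 1 signalling pathway, with no threshold on their values, and all 10 were found among the 52373 gene identifiers that both sequencing batches list. The samples were ribosome-bound RNA from the corpus callosum of male GFAP-Cre+/- Rpl22HA/wt mice, in which cells that have expressed Cre from the GFAP promoter carry an HA tag on the ribosomal protein Rpl22, and the tagged ribosomes were pulled down before bulk RNA sequencing. Cuprizone is a copper chelator that kills oligodendrocytes when eaten. The cuprizone mice began a diet with 0.2% cuprizone at 8 to 9 weeks of age and ate it for 5 weeks. They were sampled at 5 weeks, when demyelination is acute, at 5.5 weeks, after 0.5 weeks back on chow, when remyelination begins, or at 7 weeks, after 2 weeks on chow, a late stage of remyelination. Mock mice of the same genotype and age ate normal diet and were sampled at the same weeks. Each group was deposited as 3 columns, except the mock group of 5 weeks, which had 2.

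Bone morphogenetic proteins and transforming growth factors beta are secreted ligands that bind paired receptor kinases, which phosphorylate SMAD proteins that then enter the nucleus. The Id genes are classical direct targets of BMP-activated SMADs; their proteins lack a DNA-binding region and hold E proteins and other basic helix-loop-helix factors in inactive dimers. In the central nervous system BMP signalling favours astrocytes over oligodendrocytes, and Id2 and Id4 restrain the differentiation of oligodendrocyte precursors, while TGF beta ligands act on astrocytes and microglia alike.

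Not all columns were independent libraries. In 8 of the 17 columns, 46.6% to 96.4% of the genes with at least 500 counts equalled another column of the same group plus a whole number of 1 to 10. In pairs of columns that did not repeat each other, at most 4.26% of such genes lay within 10 counts of each other in either direction. Each run of repeats was counted as 1 sample, by its column with the smallest total. This left 9 libraries of 20797535 to 30400048 counts: 1 cuprizone and 1 mock library at 5 weeks, 3 cuprizone and 2 mock libraries at 5.5 weeks, and 1 of each at 7 weeks. The 5.5-week groups could therefore be tested, and the 5- and 7-week pairs are given as ratios of 2 libraries with no replicate check. The 5-week libraries were 1 sequencing batch and all others a second, so week and batch cannot be told apart between 5 weeks and later. The astrocyte markers Gfap and Aldh1l1 were abundant in all 9 libraries (at least 901 and 103 CPM, counts scaled to library size), but so was the neuronal gene Snap25 (at least 3239 CPM), so levels here are those of the whole precipitate. In such bulk samples, fewer cells of a type and less RNA per cell cannot be told apart.

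The promoters of the Id genes are shown first because the Id genes are the nuclear readout of the pathway. RefSeq promoter windows of 300 bases (GRCm38.p6, 250 bases before to 50 after the start) were at hand for 7 of the 10 genes, not for Bmp2, Bmp7 and Id1. Each was searched on both strands for GGCGCC, a GC-rich element that BMP-activated SMADs bind, and for CAGAC, which holds the SMAD box. Capitals mark the matches, which do not overlap, and each sequence runs 5′ to 3′ on the strand of its gene: Id2 at chr12:25096043-25096342 (minus strand), Id3 at chr4:136143572-136143871 (plus strand) and Id4 at chr13:48260866-48261165 (plus strand).
Id2: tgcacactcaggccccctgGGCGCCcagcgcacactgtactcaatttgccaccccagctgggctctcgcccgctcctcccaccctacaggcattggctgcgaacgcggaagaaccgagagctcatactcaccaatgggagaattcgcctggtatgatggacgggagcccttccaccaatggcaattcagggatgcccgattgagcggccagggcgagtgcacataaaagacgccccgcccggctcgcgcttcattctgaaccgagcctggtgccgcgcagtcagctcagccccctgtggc
Id3: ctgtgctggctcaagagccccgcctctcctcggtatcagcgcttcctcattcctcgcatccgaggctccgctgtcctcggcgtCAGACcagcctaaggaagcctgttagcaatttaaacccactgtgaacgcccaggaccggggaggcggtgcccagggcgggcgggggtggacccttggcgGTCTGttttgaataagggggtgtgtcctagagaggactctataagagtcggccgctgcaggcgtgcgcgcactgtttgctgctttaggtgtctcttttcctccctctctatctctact
Id4: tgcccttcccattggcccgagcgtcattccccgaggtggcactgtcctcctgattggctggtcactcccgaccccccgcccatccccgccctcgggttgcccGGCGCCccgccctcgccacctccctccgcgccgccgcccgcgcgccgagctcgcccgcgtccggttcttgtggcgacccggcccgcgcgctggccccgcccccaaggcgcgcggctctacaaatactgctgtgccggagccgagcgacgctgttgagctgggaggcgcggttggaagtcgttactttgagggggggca
The Id2 window held GGCGCC once, 231 bases before the start, and the Id4 window once, 148 bases before it. The Id3 window held CAGAC at 167 and at 68 bases before the start, the second on the opposite strand, and no GGCGCC. Among the ligands, Bmp6 held CAGAC at 119 bases and Tgfb2 at 221 and 204 bases before the start, and the windows of Bmp4 and Tgfb1 held neither. Of the 32851 promoter windows in the RefSeq table, 11.87% held GGCGCC and 49.59% held CAGAC, so the presence of these letters is common.

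Per kilobase of exon, Id2, Id3 and Id1 were the most abundant of the 10 in the mock libraries, and Id4 and Tgfb2 changed places from library to library. At 5.5 weeks the mock libraries averaged 141 CPM per kb for Id2, 73.6 for Id3, 18.9 for Id1 and 11.5 for Id4. Of the ligands, Tgfb2 stood at 9.86 CPM per kb in these mock libraries of 5.5 weeks, and Bmp4, Bmp7, Bmp2 and Bmp6 followed at 2.66, 2.03, 1.20 and 0.360. Tgfb1 was almost undetected at 0.0147 CPM per kb in mock libraries of 5.5 weeks. In the mock libraries Tgfb2 was thus the most abundant of the 6 ligands, and Tgfb1 was near the limit of counting. In the cuprizone library of 5 weeks Bmp4 stood above Tgfb2, at 7.73 and 6.84 CPM per kb.

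**Figure D1:**
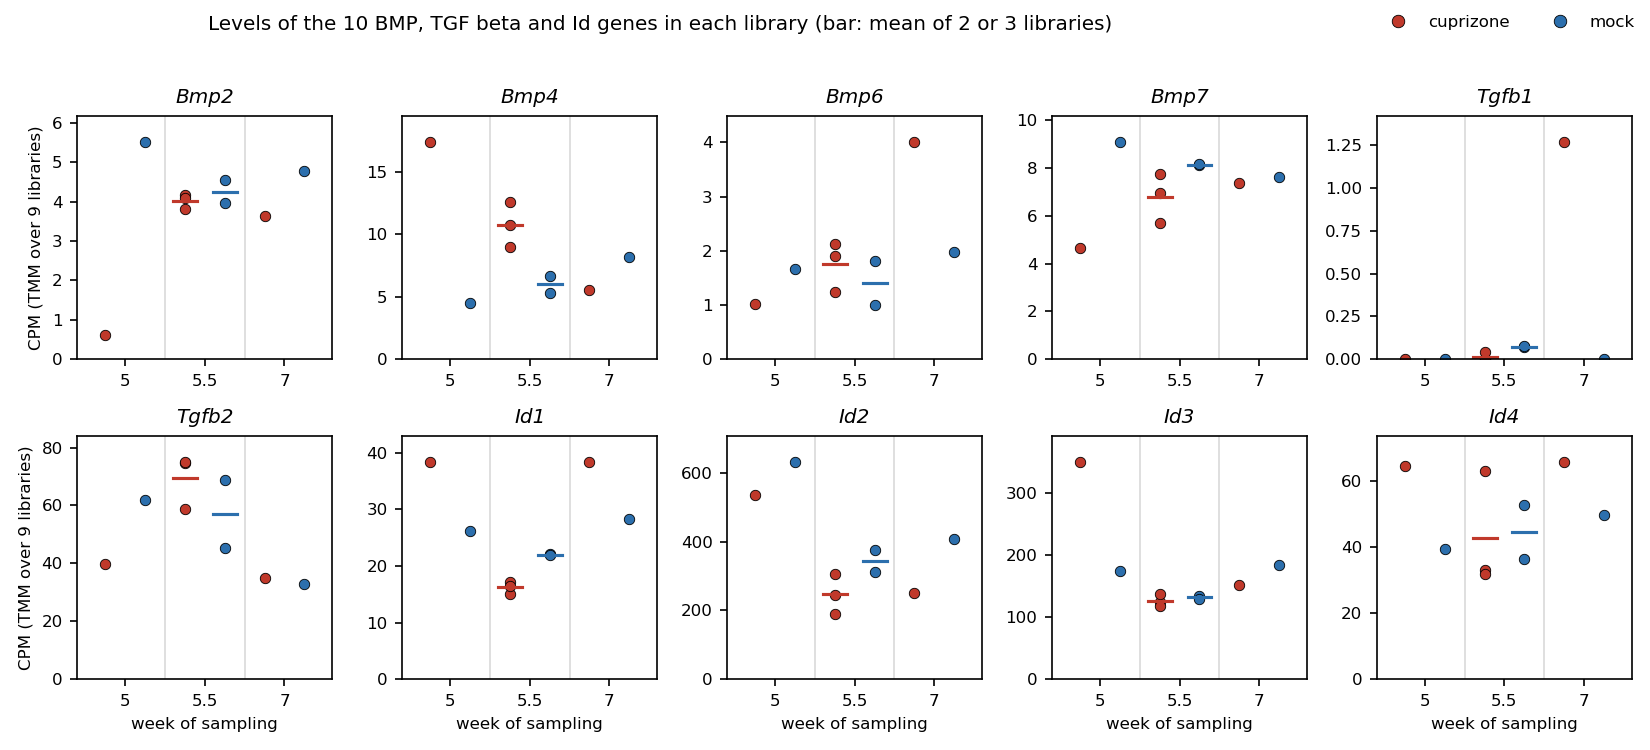
CPM of each gene (y axis, linear, scaled over the 9 libraries together by TMM) at each week of sampling (x axis), with cuprizone libraries (red) left of mock libraries (blue) and a bar at the mean where a group has 2 or 3 libraries. The 3 cuprizone libraries of 5.5 weeks lie above both mock libraries for Bmp4 and below both for Bmp7, Id1 and Id2, and Tgfb1 is seen in the cuprizone library of 7 weeks.

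The BMP ligands are taken first. Bmp4, a ligand that turns oligodendrocyte precursors towards the astrocyte lineage in culture, was higher in the cuprizone library than in the mock library at 5 weeks and lower at 7 weeks. At 5 weeks, Bmp4 had 390 counts, or 18.2 CPM, in the cuprizone library, against 93 counts, or 4.54 CPM, in the mock library. The ratio was 4.02 (95% counting interval 3.20 to 5.09), which was past the 2-fold mark used at 5 and 7 weeks for genes with at least 5 CPM in either library. Of the 11570 genes that could be judged this way at 5 weeks, 8.98% were past this mark in the higher direction in the cuprizone library and 12.1% in the lower, 21% in all. Of the 10 genes, 8 could be judged at 5 weeks and 3 were past 2-fold: Bmp4 and Id3 higher, and Bmp2 lower. Their median log2 ratio was 0.22, beside 0.00 over all genes judged.

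At 5.5 weeks, Bmp4 measured 12, 10.5 and 8.67 CPM in the 3 cuprizone libraries, against 6.51 and 5.12 CPM in the 2 mock libraries. Every cuprizone library was above both mock libraries, and the means were 10.4 ± 1.68 CPM in cuprizone (SD, n = 3) and 5.82 ± 0.981 CPM in mock (SD, n = 2). The log2 fold change was 0.84 ± 0.19 (SE), or 1.79-fold, and missed the threshold of 0.05 with an adjusted p of 0.063 in edgeR's quasi-likelihood test over 16086 genes. The call turned on the processing: DESeq2 gave an adjusted p of 0.0118, and the edgeR fit over all 9 libraries gave 0.0250. Leaving out 1 library at a time kept the log2 fold change between 0.69 and 1.02, with edgeR adjusted p of 0.0505 to 0.402. In the edgeR test at 5.5 weeks, 1.08% of all genes passed as higher and 0.392% as lower, 1.47% in all. None of the 9 genes that could be tested passed it, 3 of them (Bmp4, Id1 and Id2) had an unadjusted p under 0.05, against 10.9% of all genes, and DESeq2 called 1, Bmp4. The groups did not overlap for 4 of the 9, against 28.0% of all genes: Bmp4 was higher in every cuprizone library, as were 13.2% of all genes, and Bmp7, Id1 and Id2 were lower, as were 14.8%. The median log2 fold change of the 9 was -0.07, beside 0.00 over all genes tested.

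At 7 weeks Bmp4 was lower in the single cuprizone library than in the single mock library. The cuprizone library had 161 counts, or 6.05 CPM, against 235 counts, or 8.41 CPM, in the mock library, a value 1.39-fold lower in cuprizone (95% counting interval 1.13 to 1.71). Between cuprizone replicates 1 and 3 of 5.5 weeks Bmp4 differed about as much, 1.38-fold, and the counting interval does not cover such spread. Of the 12263 genes judged at 7 weeks, 13.0% were past 2-fold in the higher direction in the cuprizone library and 2.01% in the lower, 15% in all. Of the 10 genes, 7 could be judged at 7 weeks and 0 were past 2-fold, with a median log2 ratio of 0.05, beside -0.02 over all genes judged. Scaling by library totals alone in place of TMM moved the median of all genes at 7 weeks by 0.25 on the log2 scale, so small ratios at 7 weeks rest on the scaling.

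Whether the effect of cuprizone on Bmp4 differed between weeks was tested in an edgeR fit over the 9 libraries, in which the 5- and 7-week libraries borrow the spread of the 5.5-week groups. The log2 effect was 1.09 ± 0.36 larger at 5 than at 5.5 weeks (SE, adjusted p = 0.0326 in edgeR). At 7 weeks the effect was lower than at 5.5 weeks, with a difference of -1.42 ± 0.36 (SE, adjusted p = 0.0108 in edgeR). Such differences were common in that fit: 23.2% of 20292 genes passed between 5 and 5.5 weeks and 17.2% between 7 and 5.5 weeks. Bmp4 thus had its largest excess in cuprizone at 5 weeks, a smaller one at 5.5 weeks and none at 7 weeks.

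The sum of a list of oligodendrocyte precursor markers differed in the same direction as Bmp4 at each week, though single members differed in both directions. At 7 weeks the median of the list was near that of all genes. The summed level of 10 oligodendrocyte precursor markers at 5 weeks was 421 CPM in the cuprizone library and 307 CPM in the mock library. At 5.5 weeks it was 393 to 494 CPM in the cuprizone libraries and 330 to 335 CPM in the mock libraries, and at 7 weeks it was 311 CPM in the cuprizone library and 363 CPM in the mock library. At 5.5 weeks 1 of the 10 markers passed the edgeR test: Gpr17, a receptor of committed precursors, rose to 75.3, 63.2 and 58.5 CPM in the cuprizone libraries, against 36.2 and 32.2 CPM in the mock libraries (adjusted p = 0.00596, and 0.0759 without mock replicate 3). At 5 weeks Bcas1, a gene of newly forming oligodendrocytes, was past 2-fold higher (160 CPM in the cuprizone library and 71.3 CPM in the mock library), while Cspg4, a gene of early precursors, was past 2-fold lower (2.29 CPM in cuprizone and 8.63 CPM in mock), and Pdgfra, another early marker, had 18.9 CPM in cuprizone and 37.2 CPM in mock. Bcas1 made up much of the difference between the sums of 5 weeks. At 7 weeks Vcan was past 2-fold higher and Neu4 past 2-fold lower in cuprizone, and no marker of the list was at 0 in any library. The median log2 ratio of the 10 precursor markers was 0.57 at 5 weeks and 0.40 at 5.5 weeks, beside 0.00 over all genes at both. It was -0.03 at 7 weeks, beside -0.02 over all genes. The sum of 8 ependymal markers differed in the same direction as well, at 52.3 CPM in the cuprizone library and 29.4 CPM in the mock library at 5 weeks, 61.0 to 70.7 CPM in the cuprizone libraries and 50.02 to 60.7 CPM in the mock libraries at 5.5 weeks, and 58.5 CPM in the cuprizone library and 83.2 CPM in the mock library at 7 weeks. Of the ependymal markers 2 of 5 judged were past 2-fold higher at 5 weeks, and 2 of 6 past 2-fold lower at 7 weeks. At 5.5 weeks 0 of 7 tested passed in edgeR, and their median log2 fold change was -0.12, though the sum was higher. Much of that sum was Foxj1, which averaged 42.4 CPM in cuprizone and 29.2 CPM in mock. The part of either cell type in the level of Bmp4 was not tested.

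Bmp2, a close relative of Bmp4, went the other way at 5 weeks. The cuprizone library held 14 counts, or 0.654 CPM, against 113 counts, or 5.51 CPM, in the mock library, a level 8.43-fold lower in cuprizone (95% counting interval 4.82 to 15.9). This was the largest ratio among the 10 genes at 5 weeks, though it rests on few counts. The 2 columns that repeat this cuprizone library had 16 and 24 counts, and the column that repeats the mock library 122. At 5.5 weeks Bmp2 had 3.99, 3.97 and 3.68 CPM in the cuprizone libraries, against 3.88 and 4.38 CPM in the mock libraries. These values overlapped, and edgeR estimated a log2 difference of -0.09 ± 0.19 (SE, adjusted p = 0.909), whose sign changed in 3 of the alternative analyses. At 7 weeks Bmp2 had 3.99 CPM in the cuprizone library and 4.90 CPM in the mock library, both under the 5 CPM needed for a judgement. In the fit over 9 libraries the effect on Bmp2 at 5 weeks was lower than that at 5.5 weeks by a log2 difference of -3.05 ± 0.48 (SE, edgeR adjusted p = 9.37e-05). The mock libraries ran from 3.88 to 5.51 CPM over the 3 weeks and the later cuprizone libraries from 3.68 to 3.99 CPM, so the cuprizone library of 5 weeks alone stood low.

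Bmp7, which drives BMP signalling in the developing brain and meninges, was lower in the cuprizone library at 5 weeks but within 2-fold. It had 104 counts, or 4.86 CPM, in the cuprizone library and 186 counts, or 9.07 CPM, in the mock library, 1.87-fold lower in cuprizone (95% counting interval 1.46 to 2.40). At 5.5 weeks Bmp7 measured 6.65, 7.54 and 5.49 CPM in the cuprizone libraries, against 7.93 and 7.87 CPM in the mock libraries. All cuprizone libraries were below both mock libraries, but the log2 fold change of -0.27 ± 0.18 (SE) did not pass in edgeR (adjusted p = 0.639). At 7 weeks the levels were 8.09 CPM in the cuprizone library and 7.80 CPM in the mock library, a ratio of 1.04 (95% counting interval 0.854 to 1.26). A list of fibroblast and meninges markers had a summed level at 5 weeks of 73.7 CPM in the cuprizone library and 668 CPM in the mock library and 1 of 3 judged past 2-fold lower. At 5.5 weeks these markers summed to 174 to 204 CPM in the cuprizone libraries and 401 to 413 CPM in the mock libraries, and 2 of 7 tested fell in edgeR. At 7 weeks the sums were 436 CPM in the cuprizone library and 434 CPM in the mock library. Single markers were not level at 7 weeks: 3 of 6 judged were past 2-fold higher in cuprizone and 0 lower, with a median log2 ratio of 1.32. Much of the mock sums came from 1 gene, Ptgds, a prostaglandin synthase of the meninges and oligodendrocytes. It had 10.7 CPM in the cuprizone library and 550 CPM in the mock library at 5 weeks. At 5.5 weeks it averaged 118 CPM in the cuprizone libraries and 297 CPM in the mock libraries. At 7 weeks it had 378 CPM in the cuprizone library and 360 CPM in the mock library, much of both sums. The part of these cells in the level of Bmp7 was not tested.

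Bmp6, best known as the ligand that sets hepcidin expression in the liver, was near the lower end of detection. It had 1.82, 2.08 and 1.19 CPM in the cuprizone libraries of 5.5 weeks, against 1.77 and 0.965 CPM in the mock libraries. The groups overlapped, and the log2 fold change was 0.30 ± 0.34 (SE, edgeR adjusted p = 0.801). At 5 weeks there were 23 counts in the cuprizone library and 34 in the mock library, and the 95% counting interval of the ratio, 0.364 to 1.13, included equal levels. The 2 columns that repeat this cuprizone library list 136 and 80 counts, so the direction of Bmp6 at 5 weeks depends on the column. At 7 weeks Bmp6 had 117 counts, or 4.40 CPM, in the cuprizone library and 57 counts, or 2.04 CPM, in the mock library. That ratio was 2.16 (95% counting interval 1.56 to 3.01), but both levels were under 5 CPM. Some 5.74% of the exon bases of Bmp6 are shared with Txndc5 on the opposite strand, whose reads cannot be told apart from those of Bmp6 where the counting ignored strand. The strand setting was not given in the sources used here.

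**Figure D2:**
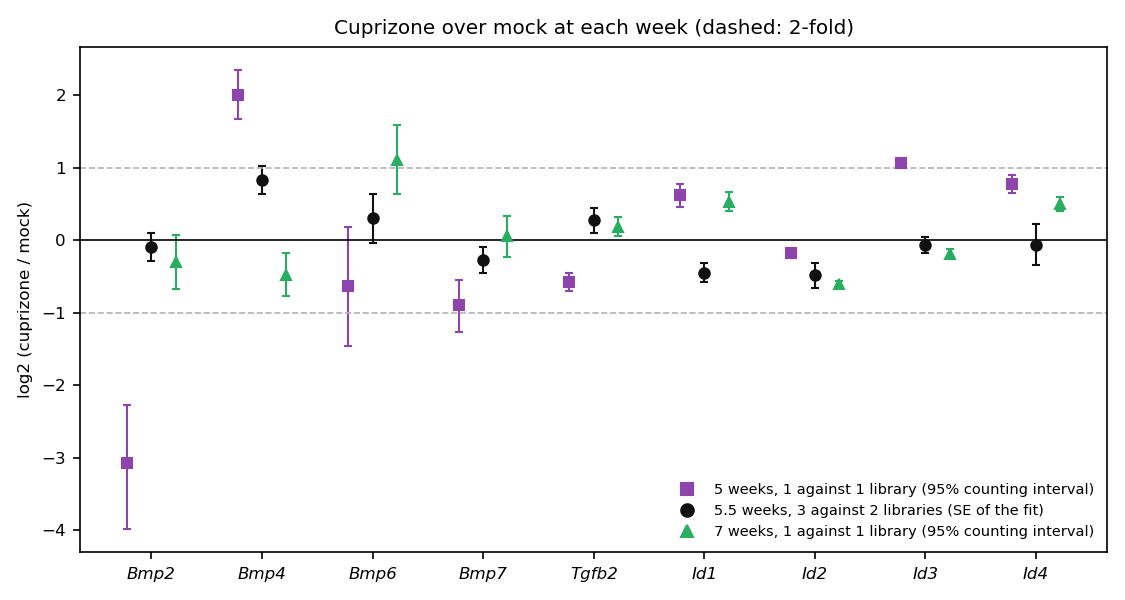
Log2 ratio of cuprizone over mock (y axis) for 9 of the genes at 5 weeks (squares), 5.5 weeks (circles) and 7 weeks (triangles). Bars are the SE of the edgeR fit at 5.5 weeks and the 95% counting interval of a single pair of libraries at 5 and 7 weeks, and dashed lines mark 2-fold. Bmp4 and Id3 lie above the upper line at 5 weeks and Bmp2 below the lower one, while the points of 5.5 weeks lie between the lines. Bmp6 at 7 weeks also lies above the upper line, with both levels under 5 CPM.

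The TGF beta ligands differed from each other in abundance and in pattern. Tgfb2, which astrocytes and neurons make, was lower in the cuprizone library at 5 weeks, with 889 counts, or 41.5 CPM, against 1268 counts, or 61.9 CPM, in the mock library. This was 1.49-fold lower in cuprizone (95% counting interval 1.37 to 1.62) and within 2-fold. At 5.5 weeks Tgfb2 measured 71.6, 57.2 and 72.4 CPM in the cuprizone libraries, against 67.4 and 43.6 CPM in the mock libraries. The 2 mock libraries differed 1.55-fold from each other and the groups overlapped. The log2 fold change was 0.27 ± 0.18 (SE, edgeR adjusted p = 0.632). At 7 weeks Tgfb2 had 38.3 CPM in the cuprizone library and 33.8 CPM in the mock library, a ratio of 1.14 (95% counting interval 1.04 to 1.24). The columns that repeat those libraries do not fix its level: they list 1651 and 1022 counts for the cuprizone group, against 1512 and 1221 for the mock group, where the libraries used have 1019 in cuprizone and 943 in mock. The effect at 5 weeks was lower than that at 5.5 weeks by a log2 difference of -0.93 ± 0.31 (SE, edgeR adjusted p = 0.0450).

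Tgfb1, a cytokine that microglia and other myeloid cells make in abundance, had at most 2 counts in 8 of the 9 libraries. At 5 weeks it had 0 counts in the cuprizone library and 0 in the mock library, which allows levels of up to 0.140 CPM in cuprizone and 0.146 CPM in mock (3 counts). At 5.5 weeks it had 0, 0 and 1 counts in the cuprizone libraries and 2 and 2 counts in the mock libraries, and it was not tested. At 7 weeks it had 37 counts, or 1.39 CPM, in the cuprizone library and 0 in the mock library. The cuprizone level was 13.0-fold above a floor of 3 counts in the mock library, and the lower 95% counting limit of the ratio was 10.02. The columns that repeat the 7-week libraries show 41 and 41 counts in cuprizone, against 1 and 5 counts in mock. All of these lie within 10 counts of the repeated library, so they are no separate measurement.

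The cuprizone library of 7 weeks stood apart from the other 8 in many genes besides Tgfb1. It had counts for 34576 genes, against 19496 to 23980 in each of the others. Of 29416 genes with at most 2 counts in each of the other 8 libraries, 446 had at least 20 counts in it, and no other library had more than 4 such genes when it took that place. All 12 microglia and macrophage markers, all 12 endothelial markers and 8 of 8 judged pericyte and smooth muscle markers were over 2-fold higher in it than in the mock library. The microglia and macrophage markers summed to 1091 CPM in the cuprizone library of 7 weeks and 59.6 CPM in the mock library of 7 weeks, and the endothelial markers summed to 354 CPM in cuprizone and 46.9 CPM in mock. Outside that library single members of both lists varied. The endothelial genes Pecam1 and Cdh5 were at or near the limit of counting, with 0 in at least 1 library each. Slc2a1 and Esam, also of the endothelial list, were at no less than 21.9 and 1.51 CPM in any library. The microglial gene Csf1r was at no less than 3.44 CPM in any library, while Lyz2 of the same list had 0 in at least 1. The part of these cell types in the levels of Tgfb1 and of the Id genes at 7 weeks was not tested.

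**Figure D3:**
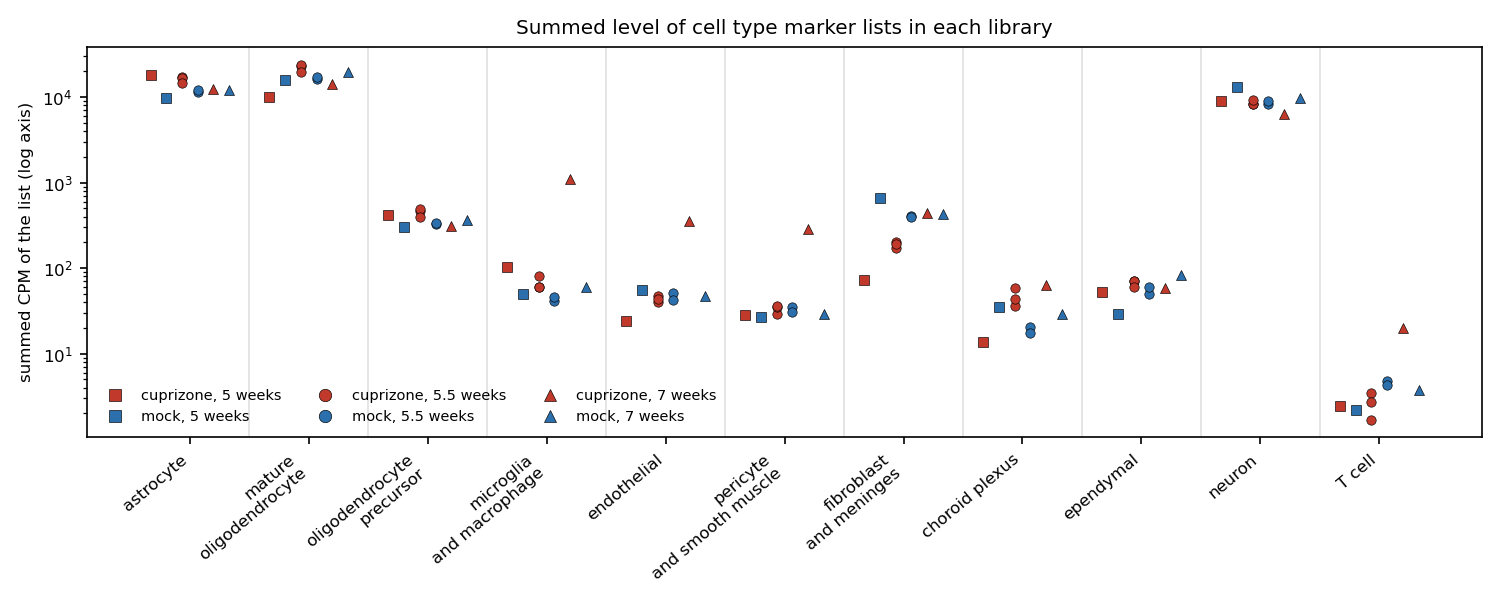
Summed CPM of each cell type marker list (y axis, log scale) in the 9 libraries, cuprizone in red and mock in blue, with squares for 5 weeks, circles for 5.5 weeks and triangles for 7 weeks. The cuprizone library of 7 weeks stands above all others for microglia, endothelial and pericyte markers, and the oligodendrocyte precursor list is higher in the cuprizone libraries of 5 and 5.5 weeks than in the mock libraries of those weeks.

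The 4 Id genes did not share a direction at 5 or 7 weeks, and at 5.5 weeks all 4 log2 fold changes were below 0 but none passed the edgeR test, and that of Id4 turned positive in 5 alternatives. Id3, which is expressed in astrocytes and vessels and is a BMP target, was the only one past 2-fold, at 5 weeks. It had 7866 counts, or 367 CPM, in the cuprizone library, against 3585 counts, or 175 CPM, in the mock library, a ratio of 2.10 (95% counting interval 2.02 to 2.19). At 5.5 weeks Id3 measured 119, 133 and 113 CPM in the cuprizone libraries, against 131 and 125 CPM in the mock libraries. These values overlapped, and the log2 estimate of -0.07 ± 0.11 (SE) had an adjusted p of 0.867 in edgeR. At 7 weeks Id3 had 166 CPM in the cuprizone library and 189 CPM in the mock library, a log2 ratio of -0.19 that changed sign to 0.05 when scaled by library totals. The effect on Id3 at 5 weeks exceeded that at 5.5 weeks by 1.07 ± 0.21 on the log2 scale (SE, edgeR adjusted p = 0.000851). The level of the cuprizone library of 5 weeks was above that of each of the other 8 libraries, which ran from 117 to 184 CPM on the scale common to the 9 libraries.

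Other cell type markers differed within the 5-week pair in which Id3, Id1 and Id4 had ratios above 1. Gfap, the astrocyte filament gene, had 9736 CPM in the cuprizone library and 901 CPM in the mock library. The 12 astrocyte markers summed to 18409 CPM in cuprizone and 9694 CPM in mock, with 1 past 2-fold higher and 1 lower. Most of the difference between these sums came from Gfap. The median log2 ratio of the 12 was -0.48, beside 0.00 over all genes judged. Of 9 microglia and macrophage markers judged 7 were past 2-fold higher, with a sum of 104 CPM in cuprizone and 49.6 CPM in mock. Of 12 mature oligodendrocyte markers 8 were past 2-fold lower, with a sum of 10107 CPM in cuprizone and 16041 CPM in mock. Their part in the levels of the Id genes at 5 weeks was not tested.

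Id1, the Id gene most often used as a readout of BMP signalling, had a ratio above 1 at 5 and 7 weeks and below 1 at 5.5 weeks. At 5 weeks it had 861 counts, or 40.2 CPM, in the cuprizone library and 537 counts, or 26.2 CPM, in the mock library, a ratio of 1.54 (95% counting interval 1.38 to 1.71). At 5.5 weeks Id1 measured 14.4, 16.7 and 15.9 CPM in the cuprizone libraries, against 21.5 and 21.1 CPM in the mock libraries. All cuprizone libraries were below both mock libraries, and the means were 15.6 ± 1.15 CPM in cuprizone (SD, n = 3) and 21.3 ± 0.295 CPM in mock (SD, n = 2). The log2 fold change was -0.45 ± 0.13 (SE), with an edgeR adjusted p of 0.167. At 7 weeks Id1 had 42.2 CPM in the cuprizone library and 29.2 CPM in the mock library, a ratio of 1.45 (95% counting interval 1.32 to 1.58). The effect on Id1 was larger than at 5.5 weeks both at 5 weeks, by 0.99 ± 0.25 on the log2 scale (SE, edgeR adjusted p = 0.00626), and at 7 weeks, by 0.88 ± 0.25 (SE, edgeR adjusted p = 0.0213). Id1 was thus the gene of the 10, beside Bmp4, whose effect at 5.5 weeks differed from those of both other weeks. At 5.5 weeks itself Bmp4 was higher and Id1 lower in every cuprizone library. For both genes the effect was larger at 5 than at 5.5 weeks, while at 7 weeks it was lower for Bmp4 and larger for Id1.

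Id2, which holds back oligodendrocyte differentiation, was the most abundant of the 10 per kilobase of exon in all 9 libraries. At 5 weeks it had 561 CPM in the cuprizone library and 632 CPM in the mock library, a ratio of 0.888 (95% counting interval 0.866 to 0.910). At 5.5 weeks Id2 measured 181, 297 and 237 CPM in the cuprizone libraries, against 304 and 363 CPM in the mock libraries. All cuprizone libraries were below both mock libraries, and cuprizone replicate 2 was 1.62-fold above cuprizone replicate 1. The means were 238 ± 57.6 CPM in cuprizone (SD, n = 3) and 334 ± 42.0 CPM in mock (SD, n = 2). The log2 fold change was -0.49 ± 0.18 (SE, edgeR adjusted p = 0.310, and 0.0424 without cuprizone replicate 2). At 7 weeks Id2 had 275 CPM in the cuprizone library and 418 CPM in the mock library, 1.52-fold lower in cuprizone (95% counting interval 1.48 to 1.56). Id2 was the only Id gene whose ratio was below 1 at all 3 weeks, under TMM and under library totals alike.

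Id4, which is needed for the timing of oligodendrocyte and neural stem cell differentiation, had a ratio above 1 in the single pairs. At 5 weeks it had 1444 counts, or 67.5 CPM, in the cuprizone library and 808 counts, or 39.4 CPM, in the mock library, a ratio of 1.71 (95% counting interval 1.57 to 1.87). At 5.5 weeks Id4 measured 31.8, 61.2 and 30.8 CPM in the cuprizone libraries, against 35.5 and 50.6 CPM in the mock libraries. Cuprizone replicate 2 was 1.91-fold above replicate 1 and 1.98-fold above replicate 3, the widest spread between cuprizone libraries of that week among the 9 genes tested. The log2 fold change was -0.07 ± 0.28 (SE, edgeR adjusted p = 0.957), and its sign changed in 5 of the alternative analyses. At 7 weeks Id4 had 72.1 CPM in the cuprizone library and 51.0 CPM in the mock library, a ratio of 1.41 (95% counting interval 1.32 to 1.52). The spread of Id4 within the cuprizone group of 5.5 weeks was thus larger than its ratios at 5 and 7 weeks.

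Across weeks, levels were compared on the scale common to the 9 libraries, with the limit that 5 weeks is its own batch. In cuprizone, Bmp4 was at 17.4 CPM at 5 weeks, 10.8 ± 1.78 CPM at 5.5 weeks (SD, n = 3) and 5.51 CPM at 7 weeks, while in mock it was at 4.54, 5.99 ± 0.952 (SD, n = 2) and 8.19 CPM at those weeks. The order of the weeks was thus opposite for cuprizone and mock, with 5 weeks highest in cuprizone and lowest in mock. Id1 was lowest at 5.5 weeks in both: it was at 38.4, 16.2 ± 1.08 (SD, n = 3) and 38.4 CPM in cuprizone at 5, 5.5 and 7 weeks, and at 26.2, 22 ± 0.0875 (SD, n = 2) and 28.4 CPM in mock. Tgfb2 was at 39.6, 69.5 ± 9.33 (SD, n = 3) and 34.9 CPM in cuprizone, and at 61.9, 57.1 ± 16.8 (SD, n = 2) and 32.9 CPM in mock. For Tgfb2 the mock levels of 5 and 5.5 weeks did not differ beyond the spread of the 5.5-week pair. No test was made between weeks within a treatment.

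**Figure D4:**
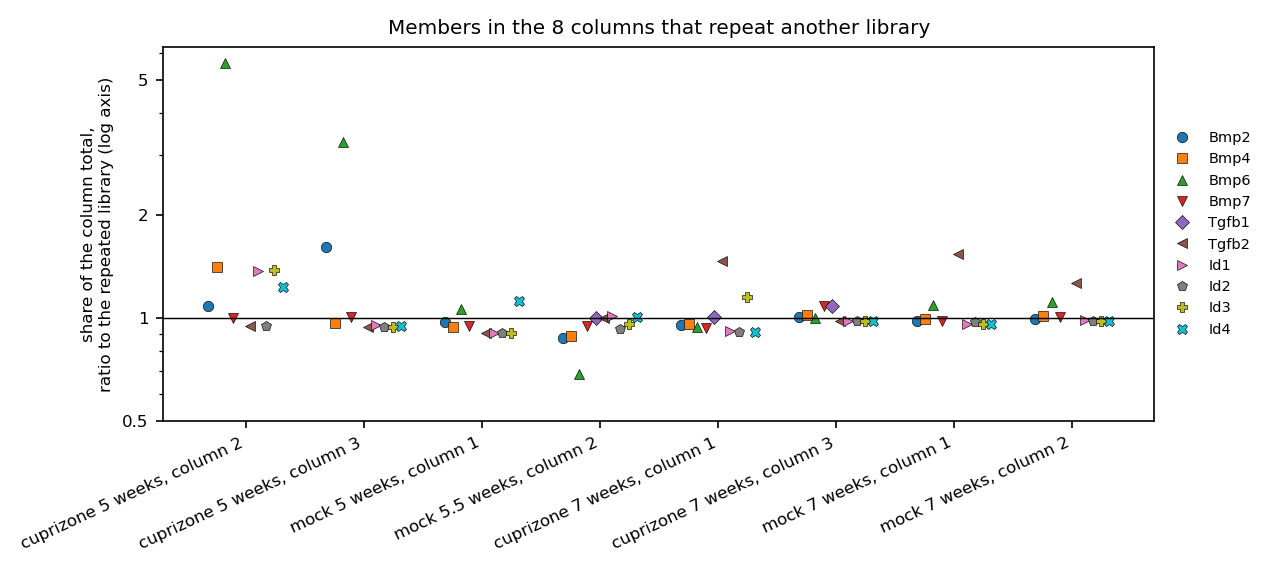
Share of the column total taken by each gene in the 8 columns that repeat another library, divided by the share in that library (y axis, log scale; a ratio of 1 means the same share). Most points lie near 1, and Bmp6 at 5.61 and 3.28 in the cuprizone columns 2 and 3 of 5 weeks stands farthest above.

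The repeating columns were also examined gene by gene. Of the 80 values of the 10 genes in those 8 columns, 61 lay 0 to 10 counts above the repeated library, 13 lay more than 10 above it and 6 lay below it. In the cuprizone column 2 of 5 weeks, Bmp4 had 580 counts, Id1 1245 and Id3 11492, where the library it repeats had 390, 861 and 7866. For all 3 the larger value lay farther from the mock library than the value used. As this column repeats the library used, it is no separate check of the direction at 5 weeks.

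Ratios of the ligands and the Id genes were set beside 133 other genes of the pathway in 10 lists. At 5.5 weeks 102 of them could be tested in edgeR, 1 passed as higher and 0 as lower, or 0.980%, beside 1.47% of all genes. The gene was Tgif1, a repressor of TGF beta-activated SMADs, which rose to 5.84, 6.32 and 4.45 CPM in the cuprizone libraries, against 2.15 and 2.56 CPM in the mock libraries. Its log2 fold change was 1.23 ± 0.23 (SE, edgeR adjusted p = 0.0208), and the adjusted p was 0.162 without mock replicate 1, 0.113 without mock replicate 3 and 0.0669 without cuprizone replicate 1. Tgif1 was past 2-fold at the other weeks as well, with 22.1 CPM in the cuprizone library and 2.20 CPM in the mock library at 5 weeks, and 7.75 CPM in the cuprizone library and 2.29 CPM in the mock library at 7 weeks.

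At 5 weeks, 68 of the 133 genes could be judged, and 8 were past 2-fold higher and 13 lower in the cuprizone library, 30.9% in all beside 21% of all genes. None of 7 SMAD genes was past 2-fold. Of 10 receptors and coreceptors 5 were lower and 0 higher, with a median log2 ratio of -0.92. Neo1, the receptor neogenin, which also binds BMPs, had 8.22 CPM in the cuprizone library and 54.6 CPM in the mock library, and Acvr1c, the receptor of Nodal and some GDFs, had 8.31 CPM in cuprizone and 25 CPM in mock. Of the other ligands, Bmp3, which opposes BMP signalling in bone, had 5.98 CPM in the cuprizone library and 46.6 CPM in the mock library. Inhba, the subunit of activin A, had 5.23 CPM in cuprizone and 11.3 CPM in mock, and Tgfb3 had 2.99 CPM in cuprizone and 7.71 CPM in mock. Of 8 genes of TGF beta latency and activation 3 were lower and 0 higher, among them the integrin subunit Itgav, at 15.5 CPM in cuprizone and 69.6 CPM in mock, and the latency protein Ltbp3, at 2.66 CPM in cuprizone and 9.66 CPM in mock. Pmepa1, an inhibitor of TGF beta signalling, was lower too, at 4.67 CPM in cuprizone and 12.7 CPM in mock.

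Of 6 further BMP target genes 3 were past 2-fold higher and 0 lower, with a median log2 ratio of 0.92. Atoh8 had 8.22 CPM in the cuprizone library and 1.56 CPM in the mock library, and Dlx1 had 5.84 CPM in cuprizone and 1.27 CPM in mock. Of 9 partners and targets of Id proteins 3 were higher and 0 lower. Olig2, which specifies the oligodendrocyte lineage and is bound by Id2 and Id4, had 54.0 CPM in the cuprizone library and 13.2 CPM in the mock library. Of 4 TGF beta targets the cell cycle inhibitor Cdkn1a was past 2-fold, at 95.2 CPM in cuprizone and 36.9 CPM in mock.

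At 7 weeks 87 of the 133 genes could be judged, and 24 were past 2-fold higher and 4 lower in the cuprizone library, 32.2% in all beside 15% of all genes. Of 16 receptors 6 were higher and 0 lower, led by the endothelial receptors Acvrl1, with 16.1 CPM in cuprizone and 0.394 CPM in mock, and Eng, with 26.0 CPM in cuprizone and 1.22 CPM in mock. Of 9 genes of latency and activation 6 were higher and 0 lower, including Ltbp4, at 51.7 CPM in cuprizone and 7.98 CPM in mock, and Bmp1, a protease that cleaves matrix proteins and BMP antagonists, at 29.6 CPM in cuprizone and 8.63 CPM in mock. Of 9 TGF beta targets 5 were higher and 1 lower, with Itga5 at 8.87 CPM in cuprizone and 0.394 CPM in mock, fibronectin (Fn1) at 26.9 CPM in cuprizone and 1.47 CPM in mock, and the lower one, Klf10, at 57.3 CPM in cuprizone and 128 CPM in mock. These stood beside the endothelial and pericyte markers of the same library, given above, and their part was not tested. None of 7 SMAD genes was past 2-fold.

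The antagonists were mixed at 7 weeks, with 2 of 10 higher and 1 lower. Nog (noggin) had 11.2 CPM in the cuprizone library and 4.69 CPM in the mock library, Bambi, a decoy receptor, had 9.51 CPM in cuprizone and 4.47 CPM in mock, and Grem1 had 1.58 CPM in cuprizone and 7.52 CPM in mock. Of 5 further TGF beta and activin ligands, the inhibin subunit Inha had 10.2 CPM in cuprizone and 3.54 CPM in mock, while Lefty1, an inhibitor of Nodal, had 6.69 CPM in cuprizone and 39.2 CPM in mock. Of 9 further BMP targets 2 were higher: Gata2, a transcription factor of blood and endothelium, at 8.01 CPM in cuprizone and 0.143 CPM in mock, and Dlx1 at 25.8 CPM in cuprizone and 10.5 CPM in mock. Of 9 Id partners and targets only Olig1 was past 2-fold, with 255 CPM in cuprizone and 607 CPM in mock.

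**Figure D5:**
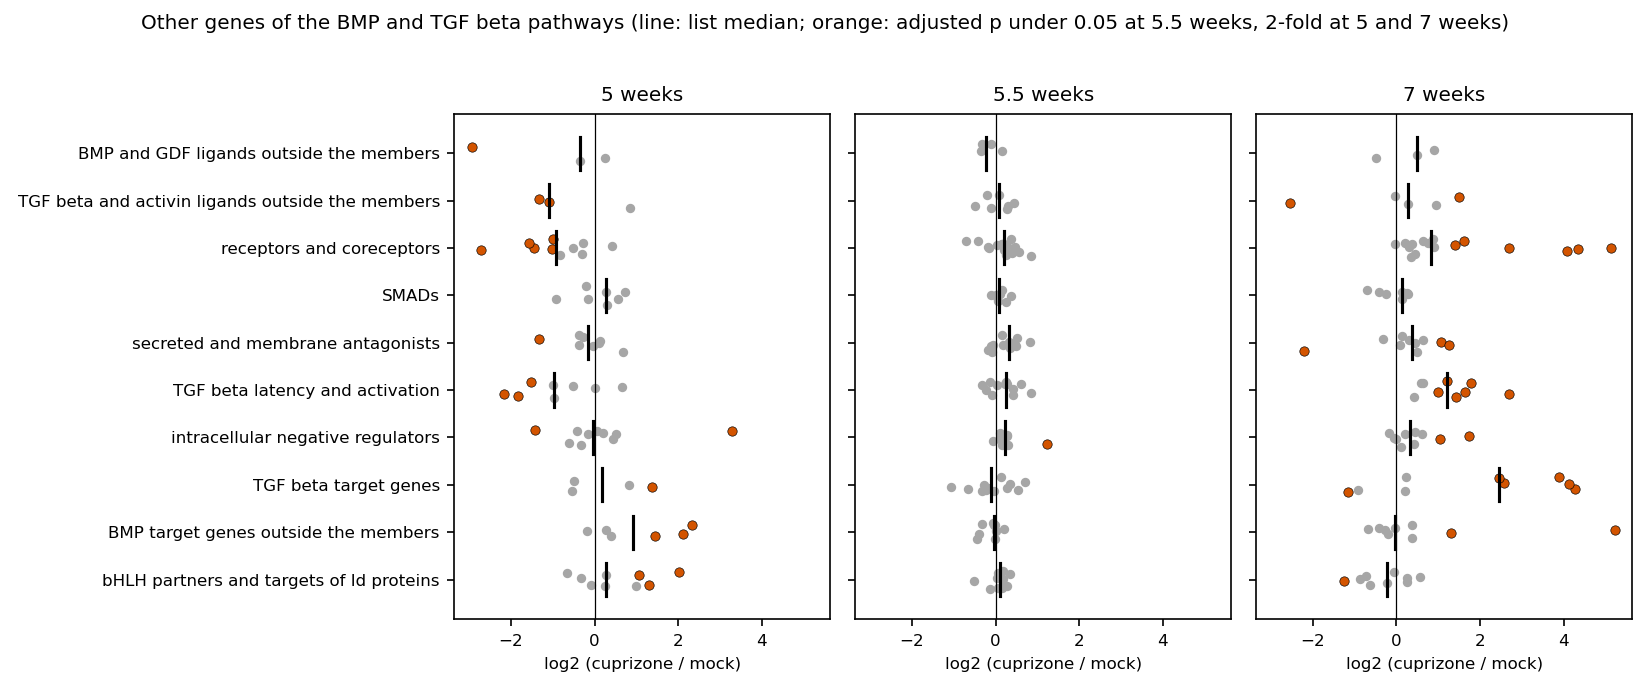
Log2 ratio of cuprizone over mock (x axis) for the measured genes of 10 pathway lists (rows) at 5, 5.5 and 7 weeks (panels). Black lines are list medians, and orange points passed the edgeR test at 5.5 weeks or 2-fold at 5 and 7 weeks. Of 68 genes 8 were higher and 13 lower in cuprizone at 5 weeks, of 102 genes 1 was higher at 5.5 weeks, and of 87 genes 24 were higher and 4 lower at 7 weeks.

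For each gene with a mean of at least 5 CPM over the 9 libraries, the genes with the most similar pattern were found among 11211 genes that met the same minimum, by Pearson's r of log2 levels centred within each batch. The gene nearest to Bmp4 was Kank1 (r = 0.98), to Bmp7 Sirt4 (0.99), to Tgfb2 Kirrel3 (0.98), to Id1 Tbl1x (0.96), to Id2 Shd (0.96) and to Id3 Ddit3 (0.95). None of the 10 genes was among the 3 nearest to another. With 9 points that share weeks, batches and depth, these values are descriptive, and among so many genes some will come close to any pattern.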

How the data were processed

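Per the submitters' processing notes, the tools were FastQC 0.11.9, STAR 2.5.4b and featureCounts 1.6.0. The notes name the builds GRCm38/mm10 and GRCm39/mm39 without a role, and the strand setting is not given in the sources used here. Per the labels' protocols, libraries were made with a low input RNA kit from RNA with an RNA integrity number above 8. The deposited values are raw counts per Ensembl gene, 1 table for each sample, as the authors gave them. Symbols came from the GENCODE M21 annotation, which named 99.4% of batch 1 identifiers and 94.0% of batch 2 identifiers.

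Of the 17 deposited columns of counts, 9 were analysed, and the 8 that repeat another column of their group were set aside. A pair was taken as repeating where over 40% of the genes with at least 500 counts in both lay within 10 counts of each other. Counts were scaled to CPM by TMM. At 5.5 weeks edgeR 4.0.16 (R 4.3.3) was run with its robust quasi-likelihood test, a minimum count of 10 in its default filter and Benjamini-Hochberg adjustment over all genes tested, with 3 residual degrees of freedom. The 3 cuprizone and 2 mock libraries are separate replicates by their labels, which do not say whether each is 1 mouse or a pool, so p-values measure the spread between these samples, which may be technical. At 5 and 7 weeks 1 library a group is left, so ratios have exact 95% Clopper-Pearson intervals that cover counting error only, and log2 ratios use a prior count of 2. Week differences come from an edgeR fit of the 9 libraries, in which the lone libraries are assumed to vary like those of 5.5 weeks. Exon lengths are merged exons of the GENCODE M21 annotation. All 10 genes were named in every comparison, and of each pathway list up to 3 genes per direction at 5.5 weeks and up to 2 at 5 and 7 weeks with the largest change among those past the threshold. Some genes that these rules would name are not reported here. A few others (Gfap, Gpr17, Bcas1, Cspg4, Pdgfra, Vcan, Neu4, Foxj1, Pecam1, Cdh5, Slc2a1, Esam, Csf1r and Lyz2) were named after their values were seen. The genes, the lists and the tests were chosen with earlier results of these data known. Alternatives were scaling, filtering, DESeq2 1.42.0, other sets of columns, leaving out each library and a replicate term. Fits were tested on simulated data first.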

Additional observations from a re-analysis of the deposited data

Results flagged for a closer look

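For 5 of the 10 genes the cuprizone effect differed between weeks in the edgeR fit of the 9 libraries, as a test of the difference itself, in a fit where 17.2% of 20292 genes passed between 7 and 5.5 weeks and 23.2% between 5 and 5.5 weeks. Between 7 and 5.5 weeks, within 1 batch, the log2 differences were -1.42 for Bmp4 and 0.88 for Id1. Between 5 and 5.5 weeks they were -3.05 for Bmp2, 1.09 for Bmp4, -0.93 for Tgfb2, 0.99 for Id1 and 1.07 for Id3, and here week and batch cannot be told apart. Tgfb1 also differed between 7 and 5.5 weeks in that fit, with a log2 difference of 10.1. It is left out of the 5 because it has at most 2 counts in 8 of the 9 libraries.

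Some values in columns set aside as repeats were well above the library they repeat, as a share of the column total, and above every mock column of that week. In the cuprizone column 2 of 5 weeks the ratios were 1.41 for Bmp4, 5.61 for Bmp6, 1.37 for Id1 and 1.39 for Id3. Bmp6 also had a ratio of 3.28 in the cuprizone column 3 of 5 weeks. For Tgfb2 it was 1.47 in the cuprizone column 1 of 7 weeks, and the mock columns 1 and 2 of that week had ratios of 1.54 and 1.27 to the library they repeat. The cause was not tested.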

How the results depend on the processing

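The edgeR test called 236 genes at 5.5 weeks and 0 of the 9 genes of the pathway tested. With no filter on low counts these were 543 and 2, with all 6 columns of that week 398 and 2, and with all 17 columns 789 and 2. The fits with DESeq2, with the mean of mock columns 1 and 2, and with the 9 libraries each called 1 of the 9 genes, Bmp4 every time. Leaving out 1 library gave 65 to 274 genes in all and 0 to 1 of the 9, the 1 being Id2 without cuprizone replicate 2. A replicate block called 825 genes and 4 of the 9 (Bmp4, Id1, Id2 and Id4), with 1 residual degree of freedom. The 2 pairs of libraries that share a number (1 and 3) had correlations of deviations of 0.087 and -0.10. With 2 mock libraries the deviations of 1 mirror those of the other, so these values cannot decide whether the numbers mark pairs. The main fit has no such term.

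The sign turned, with no call, in some settings for 3 genes. For Bmp2 the log2 fold change was 0.0195 with all 6 columns and 0.0403 with all 17 columns, and -0.17 to 0.0146 when 1 library was left out, the sign turning without mock replicate 3. For Bmp6 it was -0.049 to 0.81 when 1 library was left out, the low value without mock replicate 3 and the high one without mock replicate 1. For Id4 it was 0.0354 with all 6 columns and 0.0547 with all 17 columns, and -0.46 to 0.22 when 1 library was left out, being 0.22 without mock replicate 3, 0.092 without cuprizone replicate 1 and 0.11 without cuprizone replicate 3. The causes were not tested. Of 126 values of the 9 genes under alternatives at 5.5 weeks, 103 kept both direction and side of the threshold. At 5 and 7 weeks the number of judged genes past 2-fold was 3 and 0 in every setting run. This count leaves out Bmp6 and Tgfb1 at 7 weeks, which were under 5 CPM in both libraries. Library totals in place of TMM moved the split of genes past 2-fold at 7 weeks to 95.5% higher, against 86.6% with TMM. Depth limits Bmp6 and Tgfb1, and 1 library a group limits all of 5 and 7 weeks.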
